A study of Mus musculus with 27 samples.

Results

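Ephs are receptor tyrosine kinases and ephrins are their membrane-bound ligands, and 10 of these genes were followed across limb buds (LBs) made from mouse ES cells and embryonic tissues. The 10 genes are a fixed list of 3 A-class receptors (Epha3, Epha4 and Epha7), 3 B-class receptors (Ephb1, Ephb2 and Ephb3), 2 A-class ephrins (Efna2 and Efna5) and 2 B-class ephrins (Efnb1 and Efnb2). They were chosen by name from the 23279 genes of the table, of which 22 belong to the family. All 10 were at 1 CPM or more in at least 3 libraries, the filter that 14438 genes passed.

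The RNA-seq data comprise 9 groups. Early forelimb buds (FLBs) and hindlimb buds (HLBs), FLBs and HLBs of E10.5, and, also of E10.5, the tail bud (TB), the branchial arch (BA) and the heart (Ca) were dissected from embryos of the Slc:ICR strain, and no sorting is named. According to the methods each tissue came from 3 embryos, and whether these were pooled per library is not stated. The labels give E10.0 for both early groups, whereas the study's own text places the early FLBs before and the early HLBs after that stage. Limb type and age then cannot be told apart in the early buds, and the step to E10.5 would be longer in FLBs than in HLBs. ES–FLB and ES–HLB cells came from the ES line EB5 Hand2::GFP +/-, a single line that carries a green fluorescent reporter in Hand2, a gene of limb bud mesenchyme. Both were grown as aggregates with BMP4 and Matrigel, then with a BMP inhibitor and Wnt3. According to the methods, the later medium of both also held hydrocortisone and methylcellulose. Both were sorted by FACS for the reporter on day 9 from 96 aggregates. ES–FLBs had received a pulse of retinoic acid and ES–HLBs a pulse of a retinoic acid antagonist. Each group had 3 libraries. Replicate 2 of the E10.5 HLBs was left out of every comparison because it had no values on several chromosomes, so that 26 of 27 libraries were used. The labels do not say that replicates came from separate dissections or cultures, so p-values measure the spread between these samples, which may be technical.

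Eph receptors bind ephrins on neighbouring cells, and signals pass both into the receptor-bearing cell and back through the ephrin. A-class ephrins are held on the membrane by a lipid anchor, whereas B-class ephrins span it. A receptors mostly bind A ephrins and B receptors B ephrins, with Epha4 known to bind both classes. In the embryo these contacts keep cell populations apart, guide axons and migrating cells and shape vessels. In limb buds, Eph and ephrin genes of the mesenchyme steer motor axons to dorsal or ventral muscle and take part in patterning of the cartilage.

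Levels are CPM, the reads of a gene per 1000000 reads on genes, scaled between libraries with a trimmed mean of log ratios. Differences are log2 fold changes on the log2(CPM + 0.5) scale, tested with limma in 1 fit over the 9 groups. A difference was called when its p-value, adjusted by Benjamini-Hochberg over all 14438 genes, was below 0.05. Low genes show too small a fold change on this scale, which here concerns Ephb1 and, among the other family genes, Epha5, Epha6 and Epha8. The libraries held between 5543754 and 22142306 reads on genes, and the early limb buds were deepest, with 19642242 reads or more. The floor of detection was set at 3 reads, which was 0.541 CPM or less, and it covers counting error only. Limb mesenchyme markers were Prrx1, Fgf10, Hand2, Msx1, Lhx9 and Twist1. They summed to between 1104 and 1434 CPM in the libraries of all limb bud and ES-derived groups, although single markers differed. Lhx9 averaged 4.76 CPM in ES–FLBs and 5.51 CPM in ES–HLBs, against 127 CPM or more in the limb buds. Msx1 (42.0 and 75.2 CPM) and Fgf10 (28.1 and 17.5 CPM) were also below every limb bud mean, the lowest being 104 and 32.2 CPM. Twist1 (453 and 416 CPM) and Hand2 (156 and 236 CPM) were above every limb bud mean, the highest being 305 and 150 CPM. Prrx1 lay within the limb bud means. In BA the same markers summed to 1076 to 1163 CPM. The 6 heart markers summed to 9384 CPM or more in Ca, the 6 tail bud markers to 337 CPM or more in TB and the 6 arch markers to 512 CPM or more in BA. In bulk RNA, fewer cells of a type and less RNA per cell cannot be told apart.

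Epha3 and Epha4 had the widest ranges among the 10 genes. The mean of Epha3 was highest in ES–FLBs at 158 ± 10.3 CPM (SD, n = 3) and lowest in the E10.5 HLBs at 10.9 ± 2.33 CPM (SD, n = 2), a ratio of 14.6. For Epha4 the ratio was 7.14, from 269 ± 5.22 CPM in ES–FLBs to 37.6 ± 7.00 CPM in Ca (SD, n = 3 each). Epha4 was the gene whose 9 group means were ranked with no overlap between the libraries of neighbouring groups. At the other end, Efnb2, Ephb3, Efnb1 and Ephb2 ranged by ratios of 2.43, 2.50, 2.57 and 2.63. For Ephb2 and Efnb1, 7 of the 8 neighbouring pairs of groups overlapped. Ephb1 was the lowest gene throughout, with group means from 1.60 CPM (early HLBs) to 7.01 CPM (ES–HLBs). It also shares its locus with transcripts of the opposite strand, among them 9630041A04Rik, and the strand setting of the counting is not given in the sources used here. Epha7 likewise overlaps an antisense transcript, Gm11915. Efnb2 overlaps E230020D15Rik and Epha4 the microRNA Mir6352, both on the same strand as the gene.

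**Figure D1:**
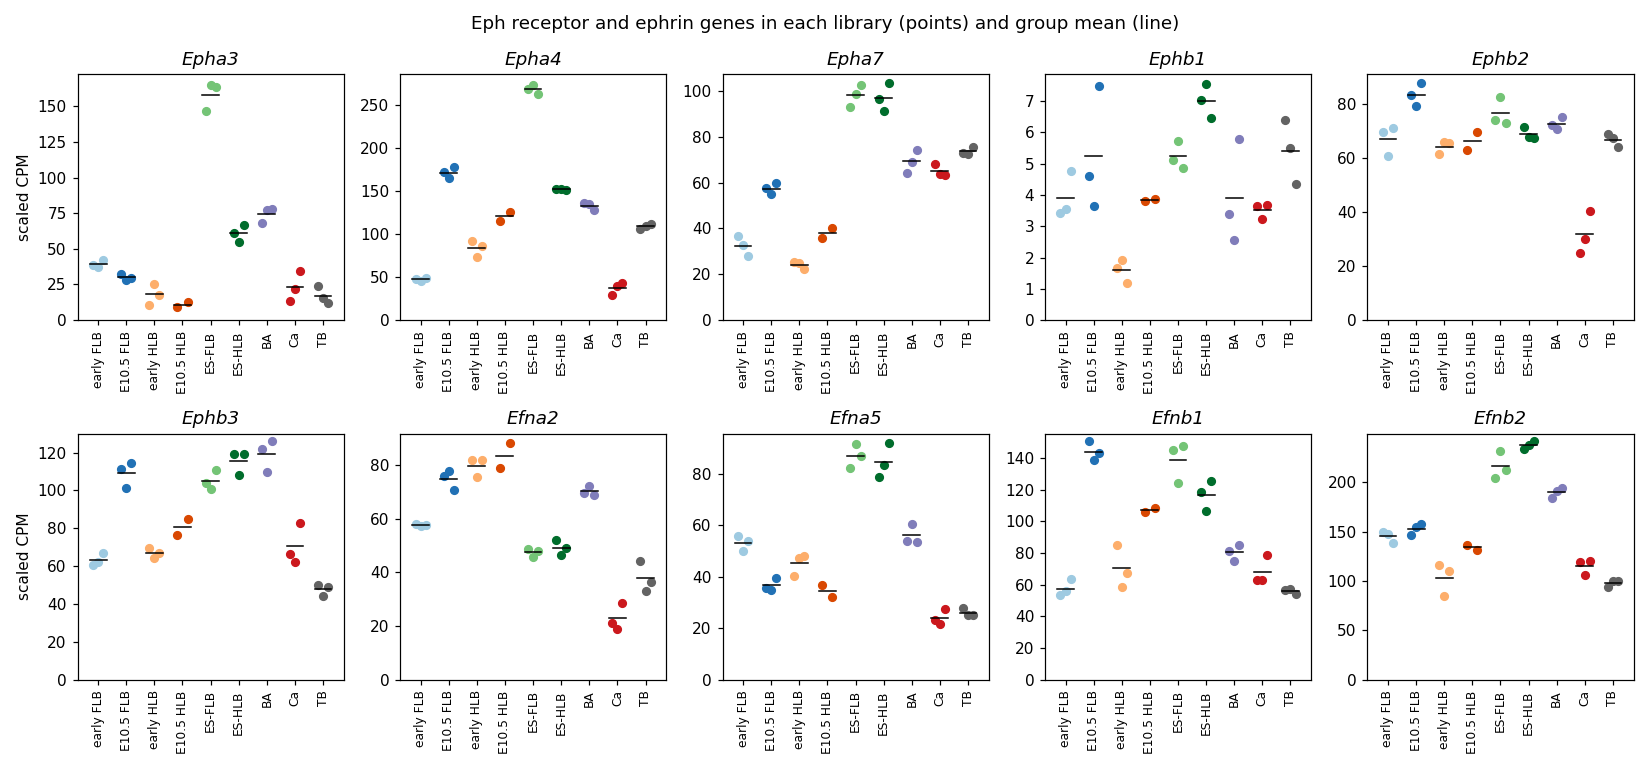
Scaled CPM (linear axis from 0) of the 10 genes in each of 26 libraries (points) of 9 groups, with the group mean as a line. The ES–FLB points of Epha3 (146 to 165 CPM) and Epha4 (264 to 274 CPM) lie above those of every other group, whereas Efna2 is lower in both ES-derived groups than in all 4 limb bud groups.

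To compare genes with each other, the mean CPM was divided by the length of the longest coding transcript in kilobases. Shares and ranks per length depend on this choice, and no other length was tried. For Epha4 the longest coding transcript has 6328 bases and the median one 2113, and for Ephb4 4340 and 4040. Per length, B ephrins made up 35.6% of the summed level of the 10 genes in ES–FLBs and 40.5% in ES–HLBs, and between 32.7% and 39.5% in the limb buds. A receptors made up 34.4% in ES–FLBs and 23.3% in ES–HLBs, against 15.1% to 21.2% in the limb buds. The summed level of the A receptors was 85.0 and 49.2 CPM per kilobase in the ES-derived types and 19.2 to 40.9 in the limb buds. A ephrins held a lower share, 17.8% in ES–FLBs and 20.9% in ES–HLBs against 22.9% to 36.8%, although their summed level of 43.8 and 44.1 CPM per kilobase lay within the 40.2 to 48.6 of the limb buds. Of the summed level per length of all 22 family genes, the 10 genes held 61.8% in ES–FLBs, 59.1% in ES–HLBs and between 49.5% and 53.4% in the limb buds. Ephb4, the venous receptor for Efnb2, was the highest single family gene per length in 8 of the 9 groups, Ca being the exception, and lay outside the list.

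The comparison of HLBs with FLBs asks which genes separate the limb types. In the early buds, 6 of the 10 genes were called, 2 higher and 4 lower in HLBs, whereas 18.9% of all genes tested were called, 8.55% as higher and 10.4% as lower. At E10.5, 6 were called and all 6 were lower in HLBs. Here 20.9% of all genes were called in either direction, 9.91% as higher and 11.0% as lower. The median difference of the 10 genes at E10.5 was -0.39, with a median of -0.0031 over all genes. Epha3 and Epha7 were lower in HLBs at both stages, whereas Epha4 changed its order.

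Epha3, an A receptor with a high affinity for ephrin-A5, was the gene with the largest limb-type difference, and lies at chr16:63543532-63864175 on the minus strand (GRCm38, RefSeq). Its levels were 38.6, 37.0 and 41.8 CPM in the early FLBs and 10.7, 25.7 and 17.7 CPM in the early HLBs. At E10.5 they were 32.3, 28.2 and 29.3 CPM in FLBs and 9.23 and 12.5 CPM in HLBs. Thus every HLB library lay below every FLB library of its stage. The log2 differences were -1.18 ± 0.30 (SE, adjusted p = 0.00897, limma) in early buds and -1.43 ± 0.33 (SE, adjusted p = 0.0055, limma) at E10.5. Both rest on few libraries. Without replicate 1 of the early HLBs the early difference was -0.86 (adjusted p = 0.0664), a fit of these 2 groups alone gave an adjusted p of 0.0681, and without replicate 1 of the E10.5 HLBs the later difference was -1.22 (adjusted p = 0.0828).

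Epha4, which directs motor axons into the dorsal limb and lies at chr1:77367182-77515107 on the minus strand, was higher in HLBs than in FLBs in the early buds and lower at E10.5. The early libraries had 47.9, 45.7 and 49.5 CPM in FLBs and 91.5, 72.9 and 86.4 CPM in HLBs. At E10.5 the values were 172, 165 and 178 CPM in FLBs and 116 and 126 CPM in HLBs. The groups did not overlap at either stage, in opposite directions. The log2 difference was 0.80 ± 0.09 (SE, adjusted p = 2.54e-07, limma) in early buds and -0.51 ± 0.10 (SE, adjusted p = 0.000643, limma) at E10.5.

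The upstream sequences of these A receptors are given because they are the pair that also differed between the ES-derived limb types. Each line holds the 250 bases before the start of the gene's RefSeq promoter entry on GRCm38 (mm10), 5′ to 3′ on the minus strand. Matches to a GC box (GGGCGG) or a CCAAT box (CCAAT), on either strand, are in capitals. The first region is chr16:63864176-63864425 and the second chr1:77515089-77515338. The start of the Epha4 entry lies inside the gene span given above, which ends at 77515107, so that the second region overlaps that span.
Epha3: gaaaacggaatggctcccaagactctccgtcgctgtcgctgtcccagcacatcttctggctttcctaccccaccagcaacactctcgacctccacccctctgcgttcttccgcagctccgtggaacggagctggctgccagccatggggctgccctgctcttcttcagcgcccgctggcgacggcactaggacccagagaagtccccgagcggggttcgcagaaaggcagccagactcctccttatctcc
Epha4: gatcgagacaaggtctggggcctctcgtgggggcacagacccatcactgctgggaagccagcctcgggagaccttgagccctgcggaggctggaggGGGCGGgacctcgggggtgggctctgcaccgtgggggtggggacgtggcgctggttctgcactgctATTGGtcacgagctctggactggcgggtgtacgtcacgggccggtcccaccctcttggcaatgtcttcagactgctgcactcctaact
The Epha4 window held 1 GC box starting 154 bases and 1 CCAAT box starting 88 bases before the start of its promoter entry. The Epha3 window held neither box, and TATAAA was in neither window. Among 32851 RefSeq promoters, 32.74% held the GC box, 33.85% the CCAAT box and 12.37% TATAAA in the same window. A match is a description of letters and was not tested for binding.

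Epha7, an A receptor of limb mesenchyme, was lower in HLBs by a smaller margin. Its levels were 36.6, 32.6 and 28.0 CPM in early FLBs and 25.4, 24.8 and 22.4 CPM in early HLBs. At E10.5 they were 57.5, 54.8 and 59.6 CPM in FLBs and 36.0 and 40.4 CPM in HLBs. No HLB library reached the FLB libraries of its stage, and the log2 differences were -0.41 ± 0.08 (SE, adjusted p = 0.000174, limma) and -0.58 ± 0.09 (SE, adjusted p = 1.15e-05, limma).

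The B receptors differed from one another. Ephb1 had 3.42, 3.55 and 4.75 CPM in early FLBs and 1.68, 1.93 and 1.20 CPM in early HLBs (log2 difference -1.07 ± 0.22 SE, adjusted p = 0.000623, limma), and its E10.5 groups overlapped, at 4.62, 3.65 and 7.50 CPM in FLBs and 3.80 and 3.88 CPM in HLBs (difference -0.35, 95% interval -0.86 to 0.16). With a pseudocount of 2 the early difference of this low gene was -0.71, still called. Ephb3 showed the reverse order of stages. It did not separate the early buds, with 60.7 to 66.9 CPM in FLBs and 64.5 to 69.5 CPM in HLBs (difference 0.08, 95% interval -0.08 to 0.24), and at E10.5 it was lower in HLBs, with 76.3 and 85.0 CPM against 111, 102 and 114 CPM (log2 difference -0.43 ± 0.09 SE, adjusted p = 0.000598, limma). Ephb2 at E10.5 had 63.0 and 69.5 CPM in HLBs and 83.2, 79.4 and 87.9 CPM in FLBs. Its call was marginal (log2 difference -0.33, adjusted p = 0.0432, limma) and was lost without either HLB library (adjusted p = 0.295 without replicate 1 and 0.0711 without replicate 3) and without replicate 1 or 3 of the FLBs (adjusted p = 0.0793 and 0.133), and also without the filter on low values (adjusted p = 0.0576) or without trend and robust (adjusted p = 0.0726). In the early buds its interval was -0.27 to 0.15.

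Among the ligands, Efna2 was higher and Efnb2 lower in early HLBs. Efna2 had 58.1, 57.1 and 57.7 CPM in early FLBs and 81.8, 75.5 and 81.7 CPM in early HLBs, with no overlap (log2 difference 0.46 ± 0.10 SE, adjusted p = 0.00118, limma). At E10.5 its difference was 0.16 (95% interval -0.07 to 0.39). Efnb2, an ephrin of arteries, had 150, 148 and 138 CPM in early FLBs and 116, 84.5 and 110 CPM in early HLBs, again without overlap (log2 difference -0.50 ± 0.07 SE, adjusted p = 1.4e-05, limma). Its E10.5 difference of -0.19 (95% interval -0.36 to -0.02) did not pass (adjusted p = 0.108), and passed in a fit of these 2 groups alone (adjusted p = 0.00894) and with CPM as deposited (-0.25, adjusted p = 0.0475).

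Efnb1, an X-linked gene whose mutation in humans causes craniofrontonasal syndrome, had 151, 139 and 143 CPM in E10.5 FLBs and 106 and 109 CPM in E10.5 HLBs. The difference of -0.43 ± 0.12 (SE, adjusted p = 0.0155, limma) was lost without either HLB library (adjusted p = 0.111 without replicate 1 and 0.0634 without replicate 3). In early buds it was 0.27 (95% interval 0.05 to 0.50, adjusted p = 0.0843), and it was 0.40 (adjusted p = 0.00792) without replicate 2 and 0.13 (adjusted p = 0.441) without replicate 1 of the HLBs. Efna5, the ephrin that repels Epha4-bearing axons in the ventral limb, had early levels of 55.7, 50.1 and 53.8 CPM in FLBs and 40.1, 47.4 and 48.1 CPM in HLBs. Its groups did not overlap, and its difference of -0.24 (95% interval -0.41 to -0.06) was just above the threshold at an adjusted p of 0.0528. It passed without replicate 2 of the FLBs, or replicate 2 or 3 of the HLBs (adjusted p between 0.0442 and 0.0483), and with weights from depth (adjusted p = 0.026), and was -0.15 (adjusted p = 0.32) without replicate 1 of the HLBs. At E10.5 the difference of Efna5 was -0.10 (95% interval -0.29 to 0.10).

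**Figure D2:**
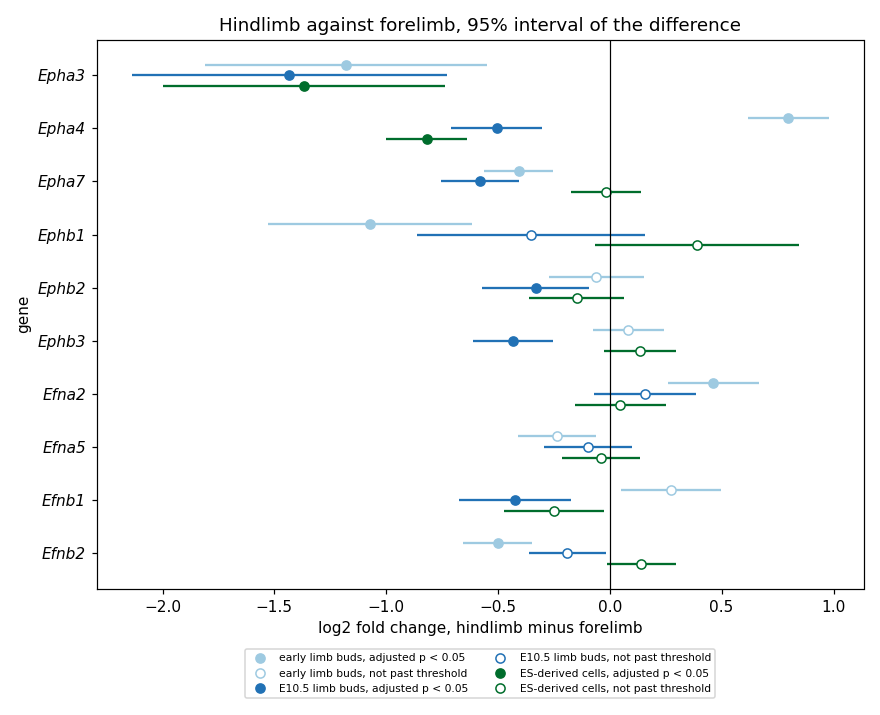
Log2 fold change of hindlimb against forelimb (linear axis, bars are 95% intervals) for the 10 genes in early buds, E10.5 buds and ES-derived cells, with filled points for adjusted p below 0.05. Epha3 is left of 0 in all 3 comparisons (-1.18, -1.43 and -1.37), and Epha4 is right of 0 in early buds (0.80) and left of it in the other two.

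Markers of other cell types moved with the limb types. At E10.5 the 6 muscle precursor markers summed to 91.0 to 96.7 CPM in FLBs and 65.7 to 67.7 CPM in HLBs, with 6 of 6 and 4 of 6 averaging 1 CPM or more. The 6 neural crest and glia markers summed to 69.4 to 75.1 CPM in FLBs and 37.6 to 44.6 CPM in HLBs (4 and 3 of 6). In the early buds, neural crest and glia markers were lower in FLBs (15.2 to 18.4 CPM) than in HLBs (21.6 to 29.3 CPM, with Sox10 and Foxd3 at 0), muscle precursor markers higher (52.7 to 61.4 against 38.3 to 48.9 CPM, 3 of 6 in each), and endothelial markers overlapped (323 to 340 against 337 to 406 CPM, 6 of 6). Their part in the differences was not tested.

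Between the ES-derived limb types, 2 of the 10 genes were called, both lower in ES–HLBs, whereas 19.9% of all genes tested were called, 11.2% as higher and 8.69% as lower. Epha3 had 146, 165 and 164 CPM in ES–FLBs and 61.3, 55.1 and 66.9 CPM in ES–HLBs. Epha4 had 268, 274 and 264 CPM in ES–FLBs and 152, 152 and 152 CPM in ES–HLBs. For both receptors the groups were far apart, with log2 differences of -1.37 ± 0.30 (SE, adjusted p = 0.00299, limma) and -0.82 ± 0.09 (SE, adjusted p = 1.34e-07, limma). Both were called in all 16 fits made of this comparison.

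The other 8 genes were not called in the ES-derived cells, with log2 differences between -0.25 (Efnb1) and 0.39 (Ephb1). Epha7 had 92.8, 98.8 and 103 CPM in ES–FLBs and 96.3, 91.1 and 103 CPM in ES–HLBs (95% interval of the difference -0.17 to 0.14). Efna2 and Efna5 were as close, with intervals of -0.16 to 0.25 and -0.21 to 0.14. The intervals of the B receptors were -0.07 to 0.85 for Ephb1, -0.36 to 0.07 for Ephb2 and -0.02 to 0.29 for Ephb3. Efnb1 (-0.25, adjusted p = 0.116) and Efnb2 (0.14, adjusted p = 0.211) passed in a fit of these 2 groups alone (adjusted p = 0.00703 and 0.02), which raised the number called to 4. Efnb2 had 204, 232 and 213 CPM in ES–FLBs and 234, 238 and 242 CPM in ES–HLBs, and Efnb1 145, 124 and 148 CPM in ES–FLBs and 119, 106 and 125 CPM in ES–HLBs, which overlapped. In the same cells, markers of undifferentiated ES cells, 6 of 6 averaging 1 CPM or more in both groups, summed to 16.4 to 23.0 CPM in ES–FLBs and 66.3 to 94.5 CPM in ES–HLBs. Surface ectoderm markers summed to 95.4 to 145 CPM in ES–FLBs and 183 to 197 CPM in ES–HLBs (6 of 6 in both). Among them, Krt5, Krt8, Krt18 and Cdh1 were higher in every ES–HLB library than in any ES–FLB library. The libraries of Epcam and Trp63 overlapped, and the mean of Epcam was lower in ES–HLBs. Blood markers summed to 3.89 to 7.00 CPM in ES–FLBs and 56.3 to 111 CPM in ES–HLBs (2 and 4 of 6). The part of all these markers in the differences was not tested.

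Whether the limb-type difference itself differed between ES-derived cells and early buds was tested as an interaction, and 6 of the 10 genes passed, 3 in each direction, against 20.1% of all genes tested, 11.5% as higher and 8.60% as lower. Epha4 gave the largest value, -1.62 ± 0.12 (SE, adjusted p = 9.14e-10, limma), since it was higher in early HLBs than FLBs and lower in ES–HLBs than ES–FLBs. Against the E10.5 buds, in which it was also lower in HLBs, the same test was not run. Ephb1 (1.46, adjusted p = 0.000939), Efnb2 (0.64, adjusted p = 5.58e-05) and Epha7 (0.39, adjusted p = 0.00917) were lower in early HLBs than FLBs and were not called between the ES-derived types. Efnb1 (-0.52, adjusted p = 0.0177) lost its call without replicate 1 of the early FLBs (-0.47, adjusted p = 0.0504) or replicate 2 of the ES–HLBs (-0.46, adjusted p = 0.0524), and in a fit of the 4 groups alone (adjusted p = 0.0652). Efna2 (-0.42, adjusted p = 0.0364) lost it in most fits that left out 1 library, with adjusted p between 0.0605 and 0.0934 in those that lost it. These were the fits without any one of the early FLBs, replicate 1 or 3 of the early HLBs, replicate 1 or 3 of the ES–FLBs, or replicate 2 or 3 of the ES–HLBs. The Efna2 call was also lost without the filter (adjusted p = 0.0572) or without trend and robust (adjusted p = 0.0716). Ephb2 (-0.09, 95% interval -0.39 to 0.21), Ephb3 (0.05, 95% interval -0.17 to 0.28) and Efna5 (0.20, 95% interval -0.05 to 0.45) did not pass. For Epha3 the interaction was -0.19, with a wide 95% interval of -1.08 to 0.70.

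The comparison of E10.5 with early buds follows the genes through outgrowth. In FLBs 6 genes rose and 1 fell, whereas 59.1% of all genes tested were called, 28.3% as higher and 30.8% as lower. In HLBs 6 rose and 1 fell, with 28.9% of all genes called, 12.6% as higher and 16.4% as lower. The median difference of the 10 genes was 0.36 in FLBs and 0.32 in HLBs, and that of all genes -0.012 and -0.023. Stage could not be told apart from sequencing depth, as the early libraries had at least 19642242 reads and the E10.5 limb bud libraries at most 5908845. In the early libraries 93.7% to 94.2% of low values were whole multiples of 1 read, and in the E10.5 libraries 98.9% to 99.1%.

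Epha4, Epha7, Ephb3 and Efnb1 rose in both limb types. Epha4 rose most in FLBs, from a mean of 47.7 to 172 CPM (log2 difference 1.84 ± 0.09 SE, adjusted p = 3.94e-15, limma), and from 83.6 to 121 CPM in HLBs (0.53 ± 0.10 SE, adjusted p = 0.000177, limma). The rise differed between limb types, with an interaction of -1.30 ± 0.13 (SE, adjusted p = 1.46e-07, limma). With the stages that the study's text gives, limb type and the length of the interval cannot be told apart in this test for any gene. Efnb1 followed the same order. It had 53.4, 55.7 and 63.3 CPM in early FLBs against 139 CPM or more in every E10.5 FLB library (1.32 ± 0.11 SE, adjusted p = 6.01e-10, limma), and 85.2, 58.6 and 67.1 CPM in early HLBs against 106 and 109 CPM (0.62 ± 0.12 SE, adjusted p = 0.000452, limma). Its interaction was -0.70 ± 0.16 (SE, adjusted p = 0.00367, limma). Ephb3, which acts with Ephb2 in several tissues, rose by 0.78 (adjusted p = 5.59e-10) in FLBs and by 0.26 (adjusted p = 0.0221) in HLBs, with an interaction of -0.52 (adjusted p = 0.00188). The HLB call of Ephb3 was lost without replicate 2 of the early HLBs (0.24, adjusted p = 0.0767) or replicate 3 of the E10.5 HLBs (0.19, adjusted p = 0.25), and without trend and robust (adjusted p = 0.0534). Epha7 rose by 0.82 (adjusted p = 7.19e-11) and 0.65 (adjusted p = 7.2e-07), and its interaction of -0.17 did not pass (95% interval -0.41 to 0.06). The interaction between stage and limb type passed for 4 of the 10 genes, 1 higher and 3 lower, and for 20.6% of all genes tested, 10.7% as higher and 9.96% as lower.

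Efna5 was the gene that fell in both limb types. Its FLB levels went from between 50.1 and 55.7 CPM to 35.8, 35.0 and 39.4 CPM (-0.53 ± 0.09 SE, adjusted p = 3.56e-06, limma), and its HLB levels from between 40.1 and 48.1 CPM to 36.7 and 31.9 CPM (-0.39 ± 0.10 SE, adjusted p = 0.00235, limma). The HLB call was lost without replicate 3 of the E10.5 HLBs (-0.29, adjusted p = 0.0856). Epha3 was lower at E10.5 by values that did not pass, -0.38 in FLBs (95% interval -1.01 to 0.25) and -0.64 in HLBs (95% interval -1.34 to 0.07). The FLB difference of Epha3 passed in a fit of these 2 groups alone (adjusted p = 0.00043), and the HLB difference was -0.96 (adjusted p = 0.0345) without replicate 1 and -0.34 (adjusted p = 0.517) without replicate 2 of the early HLBs. The interaction with limb type did not pass for Epha3 (-0.25, 95% interval -1.20 to 0.69) or Efna5 (0.14, 95% interval -0.12 to 0.40).

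The remaining genes were called in 1 limb type. Efna2 (0.37, adjusted p = 0.00219) and Ephb2 (0.31, adjusted p = 0.0114) rose in FLBs, and Ephb2 lost the call without replicate 2 of the early FLBs (0.24, adjusted p = 0.071) or replicate 3 of the E10.5 FLBs (0.28, adjusted p = 0.0503), and was 0.48 with CPM as deposited. In HLBs the difference of Efna2 was 0.07 (95% interval -0.16 to 0.29) and that of Ephb2 0.04 (95% interval -0.20 to 0.28). Ephb1 (1.06, adjusted p = 0.0015, and 0.70 with a pseudocount of 2) and Efnb2 (0.38, adjusted p = 0.000859) rose in HLBs, and in FLBs they gave 0.34 (95% interval -0.11 to 0.80) and 0.07 (95% interval -0.08 to 0.23). The HLB rise of Efnb2 did not pass in a fit of these 2 groups alone (adjusted p = 0.0642) and was 0.25 (adjusted p = 0.00532) without replicate 2 of the early HLBs, and its FLB difference was called with CPM as deposited (0.24, adjusted p = 0.0108). The difference between limb types was tested for each. It passed for Efnb2 (0.31, adjusted p = 0.0487), but in only 6 of the 22 fits made of it. Among those that lost it were the fits without replicate 1 or 2 of the early FLBs, any one of the E10.5 FLBs, replicate 2 of the early HLBs (0.17, adjusted p = 0.149) or either E10.5 HLB library, and that with CPM as deposited (0.20, adjusted p = 0.241). It did not pass for Efna2 (-0.31, adjusted p = 0.154, and 0.0197 in a fit of the 4 groups alone), Ephb2 (-0.27, adjusted p = 0.234) or Ephb1 (0.72, adjusted p = 0.13), and for Ephb1 it passed without replicate 3 of the E10.5 FLBs (0.99, adjusted p = 0.035).

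**Figure D3:**
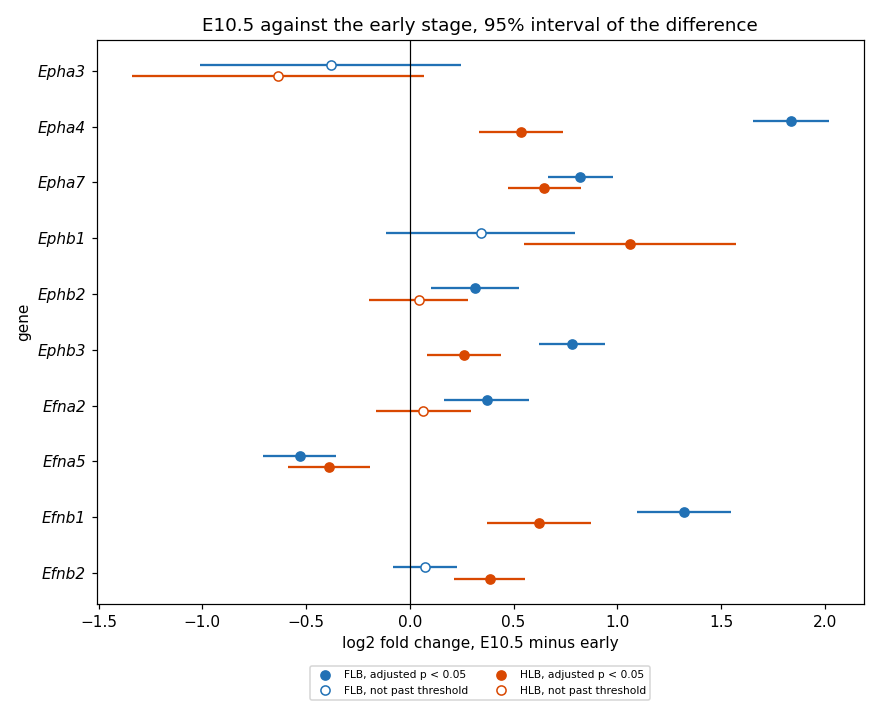
Log2 fold change of E10.5 against early buds (linear axis, bars are 95% intervals) for the 10 genes in FLBs and HLBs, with filled points for adjusted p below 0.05. Epha4 (1.84 in FLBs, 0.53 in HLBs) and Efnb1 (1.32 and 0.62) show the widest gaps between limb types among the genes called in both, and Efna5 is left of 0 in both.

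Muscle precursor and neural crest and glia markers were also higher in the older buds. In FLBs the first summed to 52.7 to 61.4 CPM in early and 91.0 to 96.7 CPM in E10.5 libraries (3 and 6 of 6 averaging 1 CPM or more), and the second to 15.2 to 18.4 and 69.4 to 75.1 CPM (3 and 4 of 6). In HLBs the ranges were 38.3 to 48.9 and 65.7 to 67.7 CPM, and 21.6 to 29.3 and 37.6 to 44.6 CPM. Surface ectoderm markers were lower at E10.5, at 325 to 414 and 255 to 266 CPM in FLBs and 292 to 345 and 237 to 260 CPM in HLBs (6 of 6 averaging 1 CPM or more throughout), although Krt5 was higher there, at 25.5 and 83.1 CPM in FLBs and 52.1 and 63.0 CPM in HLBs. Their part in the differences was not tested.

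ES–LB cells were compared with the limb buds of their type. Most of the 10 genes were called higher in the ES-derived cells, and Efna2 was called lower. Against early FLBs, ES–FLBs had 7 genes higher and 1 lower, and against early HLBs, ES–HLBs had 8 higher and 1 lower. Of all genes tested, 76.9% and 75.3% were called in these comparisons, so being called was common. Calls as higher made up 38.9% and 38.5% of all genes, and calls as lower 38.0% and 36.8%. Against E10.5 buds, 5 were higher and 1 lower in ES–FLBs (68.8% of all genes called, 33.9% as higher and 34.9% as lower), and 7 higher and 1 lower in ES–HLBs (68.7% called, 35.3% as higher and 33.4% as lower). The median difference of the 10 genes in these comparisons was 0.72, 0.88, 0.27 and 0.65, in the order named, with medians of all genes between -0.0013 and 0.030. The comparisons with early and E10.5 buds of a type share their ES-derived libraries. ES-derived and embryonic samples also differ in strain, culture, sorting and dissociation, which cannot be told apart here. Sequencing depth cannot be told apart either in the comparisons with early buds. The ES-derived libraries had at most 7879905 reads and the early limb bud libraries at least 19642242. Markers of other cell types moved as well. Blood markers summed to 111 CPM or less in the ES-derived libraries and to 1508 CPM or more in the limb buds. Muscle precursor markers summed to 11.3 to 21.3 against 38.3 to 96.7 CPM, and surface ectoderm markers to 95.4 to 197 against 237 to 414 CPM. Trp63 averaged 3.63 CPM in ES–FLBs and 4.14 CPM in ES–HLBs against 38.0 CPM or more. Epcam and Krt18 were also below every limb bud mean. Krt5 (35.6 and 64.4 CPM) lay within the limb bud means of 25.5 to 83.1 CPM. So did Krt8 (38.3 CPM, limb buds 26.5 to 100 CPM) and Cdh1 (44.4 CPM, limb buds 42.4 to 58.6 CPM) in ES–HLBs, but not in ES–FLBs (20.9 and 27.1 CPM). Neural markers were higher in sum, at 47.1 to 75.3 against 9.21 to 19.3 CPM. Among them Stmn2 averaged 16.8 CPM in ES–FLBs and 29.2 CPM in ES–HLBs, and Sox2 8.89 and 23.3 CPM, against 2.95 and 0.563 CPM or less. Tubb3 averaged 21.7 CPM in ES–FLBs, and its 11.5 CPM in ES–HLBs lay within the limb bud means of 7.97 to 13.9 CPM. Markers of undifferentiated ES cells were also higher, at 16.4 to 94.5 against 0.818 to 2.40 CPM. Their part in the differences was not tested.

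Epha3, Epha4, Epha7, Efna5 and Efnb2 were higher in all 4 comparisons. Epha3 exceeded the limb buds by log2 differences of 2.00 and 2.38 in ES–FLBs (adjusted p = 7.58e-06 and 1.28e-06, against early and E10.5 buds) and of 1.81 and 2.45 in ES–HLBs (adjusted p = 2.56e-05 and 3.55e-06). Its lowest ES–HLB library, at 55.1 CPM, was above the highest limb bud library, an early FLB at 41.8 CPM. Epha7 was nearly equal in both ES-derived types and exceeded the limb buds by 1.59 and 0.77 in ES–FLBs and by 1.98 and 1.33 in ES–HLBs (adjusted p of 1.87e-10 or less in each). Its ES-derived libraries lay between 91.1 and 103 CPM, against 22.4 to 59.6 CPM in the limb buds.

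Epha4 in ES–FLBs exceeded early FLBs by 2.48 ± 0.09 (SE, adjusted p = 1.18e-18, limma) and E10.5 FLBs by 0.64 ± 0.09 (SE, adjusted p = 5.06e-07, limma). In ES–HLBs it exceeded early HLBs by 0.87 ± 0.09 (SE, adjusted p = 2.17e-09, limma). Against E10.5 HLBs, ES–HLBs were 0.33 ± 0.10 higher (SE, adjusted p = 0.00435, limma), and the call was lost without replicate 1 of the E10.5 HLBs (0.27, adjusted p = 0.0656). Thus the ES–HLB level of 152 CPM lay between the E10.5 HLB libraries (116 and 126 CPM) and the lowest E10.5 FLB library (165 CPM).

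Of the ligands, Efna5 had 82.2, 91.6 and 87.1 CPM in ES–FLBs and 78.8, 83.3 and 92.1 CPM in ES–HLBs. Every one of these libraries was above the highest limb bud library at 55.7 CPM, and the log2 differences were 0.70 and 1.23 in ES–FLBs and 0.90 and 1.29 in ES–HLBs (adjusted p of 8.86e-09 or less in each). Efnb2 was likewise above all limb bud libraries, with differences of 0.57 and 0.50 in ES–FLBs and 1.21 and 0.83 in ES–HLBs (adjusted p of 1.55e-06 or less in each). Efnb2 also marks arterial endothelium, and the 6 endothelial markers summed to 25.4 to 29.7 CPM in ES–FLBs and 38.3 to 43.7 CPM in ES–HLBs, against 294 to 406 CPM in the limb buds, with 6 of 6 averaging 1 CPM or more in each group. Their part in the Efnb2 values was not tested.

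Efna2 was lower in all 4 comparisons. Its ES-derived libraries had 48.8, 45.8 and 47.8 CPM in ES–FLBs and 52.0, 46.4 and 48.9 CPM in ES–HLBs, and its lowest limb bud library 57.1 CPM. The differences were -0.28 and -0.65 in ES–FLBs (adjusted p = 0.0138 and 2.01e-06) and -0.69 and -0.76 in ES–HLBs (adjusted p = 5.03e-07 and 9.83e-07). The smallest of these depended on the scaling. With CPM as deposited, ES–FLBs differed from early FLBs by -0.06 (adjusted p = 0.632).

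Ephb3 and Efnb1 were higher against early buds in both types. Ephb3 differed by 0.73 in ES–FLBs and 0.78 in ES–HLBs (adjusted p = 7.89e-10 and 2.08e-10), and Efnb1 by 1.27 and 0.74 (adjusted p = 4.09e-10 and 2.07e-06). Against E10.5 buds, Efnb1 overlapped in both types (95% intervals -0.28 to 0.17 and -0.13 to 0.37). Ephb3 overlapped in ES–FLBs (95% interval -0.21 to 0.11) and was higher in ES–HLBs by 0.52 (adjusted p = 5.29e-06). Ephb1 was higher in ES–HLBs than in early HLBs by 1.85 (adjusted p = 7.31e-09), with 7.02, 7.55 and 6.47 CPM, and than in E10.5 HLBs by 0.79 (adjusted p = 0.00615). In ES–FLBs it had 5.11, 5.71 and 4.87 CPM, above every early FLB library, and the difference of 0.39 (95% interval -0.07 to 0.84, adjusted p = 0.113) passed with CPM as deposited (0.59, adjusted p = 0.0205) and in a fit of these 2 groups alone (adjusted p = 0.0359). Against E10.5 FLBs it was 0.05 (95% interval -0.41 to 0.50). Ephb2 was not called in any of the 4 comparisons, with 95% intervals between -0.34 and 0.40. With CPM as deposited it was called higher than in early buds in both types (0.41 and 0.27, adjusted p = 0.00212 and 0.0351), and in ES–FLBs also in a fit of these 2 groups alone (adjusted p = 0.0202).

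**Figure D4:**
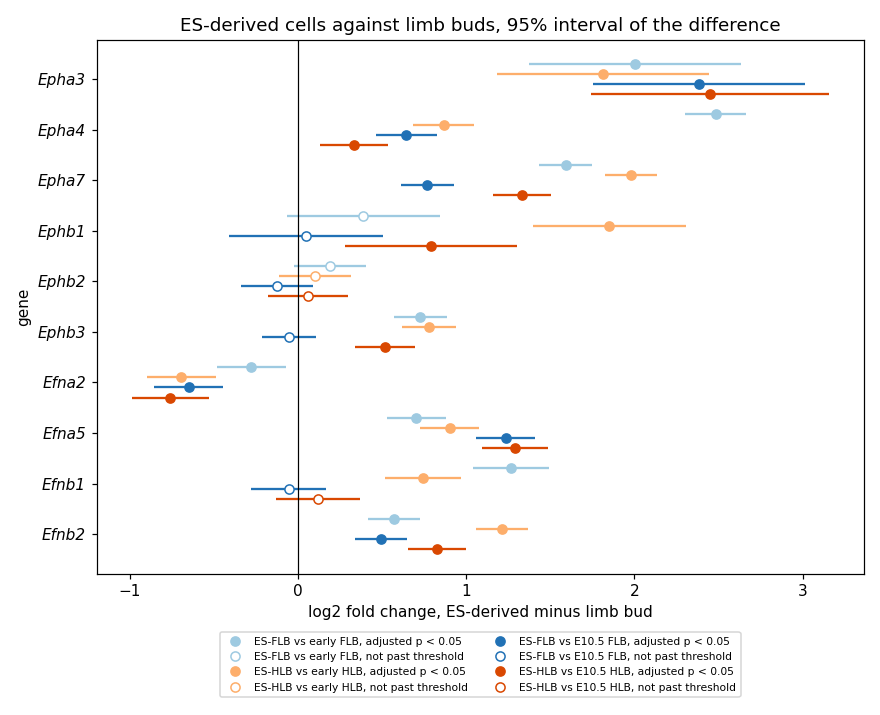
Log2 fold change of ES-derived cells against limb buds of their type (linear axis, bars are 95% intervals) for the 10 genes, with filled points for adjusted p below 0.05. Epha3 lies between 1.81 and 2.45 in the 4 comparisons, Efna2 is left of 0 in all of them (-0.28 to -0.76), and Ephb2 is close to 0.

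The remaining E10.5 tissues were set against the mean of E10.5 FLBs and HLBs. These limb bud libraries are shared by the 3 comparisons. In BA, 5 genes were higher and 1 lower (32.7% of all genes called, 17.1% as higher and 15.6% as lower). In Ca, 1 was higher and 7 lower (76.8% called, 38.0% as higher and 38.8% as lower). In TB, 1 was higher and 6 lower (46.0% called, 23.5% as higher and 22.5% as lower). Epha7 was the gene called higher in each, with log2 differences of 0.56 in BA, 0.47 in Ca and 0.65 in TB (adjusted p = 9.74e-08, 2.57e-07 and 2.04e-09). Efnb1 was called lower in each, by -0.63, -0.87 and -1.14 (adjusted p = 3.06e-05, 3.51e-08 and 1.98e-09).

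Epha3 was the gene with the largest difference in BA, whose mesenchyme comes largely from neural crest. BA libraries had 68.1, 77.3 and 77.8 CPM against 9.23 to 32.3 CPM in the E10.5 limb buds (log2 difference 2.02 ± 0.27 SE, adjusted p = 1.31e-05, limma). Efna5 (0.65, adjusted p = 5.05e-08), Efnb2 (0.41, adjusted p = 2.77e-05) and Ephb3 (0.34, adjusted p = 0.0003) were also higher in BA. Epha4 did not differ detectably (95% interval -0.27 to 0.05), with 137, 135 and 128 CPM, between the FLB and the HLB libraries. Ephb1 (-0.22, 95% interval -0.63 to 0.19) and Efna2 (-0.17, 95% interval -0.35 to 0.02) were not called either, and Efna2 passed in a fit of these 3 groups alone (adjusted p = 0.0242). BA libraries varied in neural markers, which summed to 46.1 to 170 CPM (4 of 6 averaging 1 CPM or more), against 10.4 to 19.3 CPM in the E10.5 limb buds, where Sox1 and Neurog2 were at 0, and their part in the differences was not tested.

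In Ca, the largest differences were of Epha4, Efna2 and Ephb2. Epha4 had 29.7, 40.2 and 43.0 CPM (-1.94 ± 0.08 SE, adjusted p = 1.82e-17, limma). Efna2 had 21.0, 19.0 and 28.6 CPM (-1.79 ± 0.09 SE, adjusted p = 1.69e-16, limma), and Ephb2 24.8, 29.9 and 40.4 CPM (-1.24 ± 0.09 SE, adjusted p = 6.18e-12, limma). None of these libraries reached the lowest limb bud library, although Ca replicates spread widely, Epha3 between 13.4 and 34.7 CPM. Efna5 (-0.56, adjusted p = 1.15e-07), Ephb3 (-0.42, adjusted p = 3.41e-06) and Efnb2 (-0.31, adjusted p = 0.000134) were lower by less, and for Ephb3 the highest Ca library, at 82.9 CPM, was above the lowest limb bud library. Ephb1 was not called (-0.29, 95% interval -0.70 to 0.13). Ca also held blood markers at 19073 to 27079 CPM in sum and endothelial markers at 906 CPM or more (6 of 6 each), against 2105 to 3076 CPM and 294 to 336 CPM in the E10.5 limb buds, and their part in the differences was not tested.

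In TB, Ephb3 had 50.1, 44.3 and 48.7 CPM, below all limb bud libraries (-0.97 ± 0.07 SE, adjusted p = 8.05e-13, limma). Efnb1 had 56.5, 57.5 and 54.2 CPM, and Efna2 44.2, 32.8 and 36.4 CPM (-1.06 ± 0.09 SE, adjusted p = 1.05e-10, limma). These genes were lower than in every E10.5 limb bud library. Efnb2 (-0.55), Efna5 (-0.44) and Epha4 (-0.40) were lower by less (adjusted p of 0.000188 or less in each). Epha3 was not called in TB (95% interval -0.69 to 0.44) or Ca (95% interval -0.31 to 0.83), and Ephb2 was not called in TB or BA (95% intervals -0.34 to 0.04 and -0.22 to 0.16), although it passed in TB in a fit of these 3 groups alone (adjusted p = 0.0251). Ephb1 was not called in TB (0.26, 95% interval -0.15 to 0.67). Neural markers summed to 124 to 147 CPM in TB (6 of 6, with Sox2 averaging 61.9 CPM) and 10.4 to 19.3 CPM in the E10.5 limb buds, and muscle precursor markers to 162 to 186 CPM (4 of 6) and 65.7 to 96.7 CPM, and their part in the differences was not tested.

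**Figure D5:**
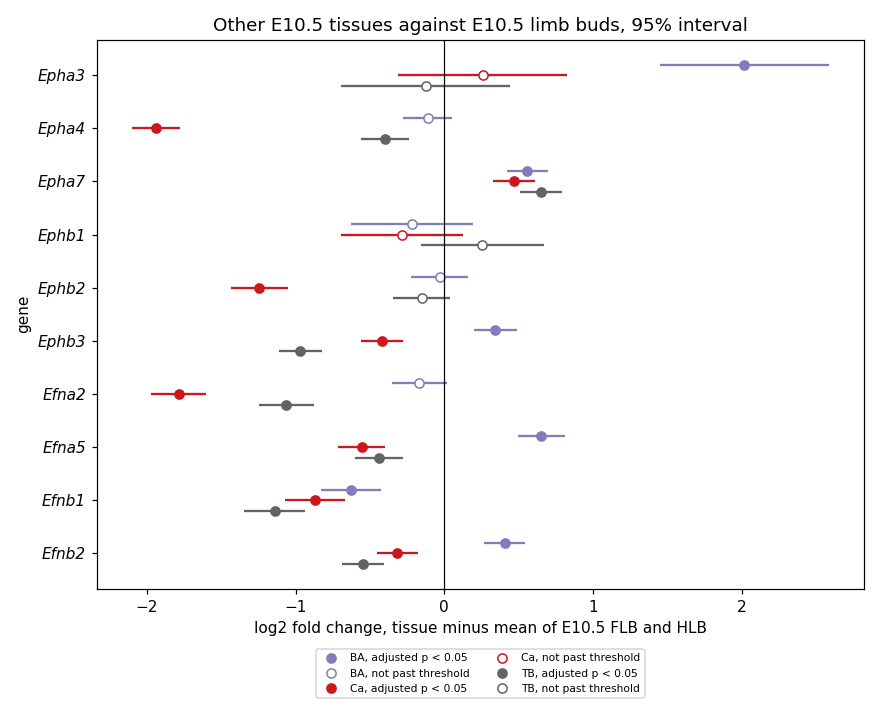
Log2 fold change of BA, Ca and TB against the mean of E10.5 FLBs and HLBs (linear axis, bars are 95% intervals) for the 10 genes, with filled points for adjusted p below 0.05. Epha7 is right of 0 in all 3 tissues (0.47 to 0.65), Efnb1 left of 0 in all 3, and Epha3 stands out in BA at 2.02.

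The 12 other family genes give the setting, and 11 of them passed the filter, Epha10 being too low. Among ES-derived cells, Epha2, a receptor of epithelia and early embryonic cells, had 2.97 CPM in ES–FLBs and 11.7 CPM in ES–HLBs (log2 difference 1.83, adjusted p = 4.54e-13), and Epha8 was also higher in ES–HLBs (0.88, adjusted p = 0.00787). A total of 3 of the 11 were called, all higher (19.9% of all genes called, 11.2% as higher), whereas both called genes of the list of 10 were lower. Against early buds, 8 of the 11 were higher and 3 lower in ES–FLBs, and 6 higher and 3 lower in ES–HLBs, where 76.9% and 75.3% of all genes were called. Epha8 (2.96 and 3.59) and Epha5 (3.18 and 2.59) had the largest fitted increases. Both were below 1 CPM in every early library, Epha5 being at 0 in 1 early FLB library, so that their fitted values understate the change. The 3 lower genes, in both types, were Epha2 (-2.35 and -0.84), Efna1 (-1.60 and -1.82) and Epha1, a receptor of epithelia (-1.16 and -1.43). Against E10.5 buds, 2 were higher and 4 lower in ES–FLBs, and 5 higher and 4 lower in ES–HLBs, with 68.8% and 68.7% of all genes called. Between limb types, 3 of 11 were called in early buds, all higher in HLBs, with Efna3 at 0.51 and Efna4 at 0.35, and 1 at E10.5, the very low Epha6, as lower (18.9% and 20.9% of all genes called). Between stages, 9 rose in FLBs and 3 in HLBs (59.1% and 28.9% of all genes called), with Efnb3 (0.71 and 0.35) and Ephb4 (0.53 and 0.24) in both. In BA 5 were lower, in Ca 4 were higher and 6 lower, and in TB 5 were higher and 5 lower, with 32.7%, 76.8% and 46.0% of all genes called. The interaction of limb type with culture passed for 6 of the 11 (2 higher, 4 lower) and that with stage for 4 (all lower), against 20.1% and 20.6% of all genes.

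Of 25 genes listed as partners of Eph and ephrin signalling, all passed the filter. Grip1, a scaffold that binds B ephrins, was lower in hindlimb than in forelimb in early buds (-0.57, adjusted p = 6.96e-05), E10.5 buds (-0.56, adjusted p = 0.000469) and ES-derived cells (-0.54, adjusted p = 0.000111). In these comparisons 3, 3 and 8 of the 25 were lower and 4, 1 and 1 higher, with 18.9%, 20.9% and 19.9% of all genes called. Between stages, Rgs3, which binds B ephrins and dampens G protein signals, rose in FLBs (0.96) and HLBs (0.66), where 10 and 7 genes rose and 4 and 3 fell (59.1% and 28.9% of all genes called). Against early buds, 11 were higher and 9 lower in ES–FLBs and 8 higher and 10 lower in ES–HLBs, which is close to the 76.9% and 75.3% of all genes called. Kalrn, an activator of Rac, was higher (1.08 and 1.40) and Arhgef15, a guanine nucleotide exchange factor of endothelium, lower (-2.35 and -2.33). Against E10.5 buds, 4 were higher and 12 lower in ES–FLBs, and 3 higher and 13 lower in ES–HLBs (68.8% and 68.7% of all genes called), and the median difference of the 25 was -0.14 and -0.15. In BA 7 were higher and 4 lower, in Ca 10 and 11, and in TB 6 and 10, with 32.7%, 76.8% and 46.0% of all genes called. The interaction of limb type with culture passed for 7 of the 25 (3 higher, 4 lower) and that with stage for 7 (2 higher, 5 lower), against 20.1% and 20.6% of all genes.

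Over the 9 group means, the 2 members most alike were Ephb3 and Efnb2, with Pearson's r = 0.86 on the log2 scale, and the least alike Epha7 and Efna2, with r = -0.50. Among 12380 genes at 5 CPM or more in their highest group, those most like Epha3 were 4930412O13Rik (r = 0.97), Ripk3 (r = 0.95) and Kctd12 (r = 0.95), and those most like Epha4 were 2810410L24Rik, Ndst2 and Ldb2 (r = 0.97 each). For Efnb2 they were Ercc6 (r = 0.97), Nynrin and Ttyh2 (r = 0.96 each), and for Efna2 Csnk1e (r = 0.98), Lsm14b and Limd2 (r = 0.97 each). The best match of Epha7 was Spag9 (r = 0.97), of Ephb1 Gfra1 (r = 0.90), of Ephb2 Sppl3 (r = 0.99), of Ephb3 Rad54b (r = 0.96), of Efna5 Appl1 (r = 0.97) and of Efnb1 Pigc (r = 0.97). With 9 points that share libraries within each group and a search over all these genes, such values describe these groups alone.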

How the data were processed

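From stranded mRNA the authors obtained single-end reads, aligned them to mm10 with HISAT2 2.0.4 and estimated reads per gene with Cuffdiff (Cufflinks 2.1.1 in the submitters' processing notes), and used edgeR 3.16.2 for their own tests. They deposited CPM, 1 value per gene and library, summing to 1000000. Here the scaling between libraries was a trimmed mean of log ratios without weights (30% and 5% trimmed), and log2(CPM + 0.5) was fitted, for genes that reached 1 CPM in 3 libraries or more, with limma 3.58.1 (trend and robust) in R 4.3.3, 9 group means over 26 libraries, with Benjamini-Hochberg adjustment. The study tested counts; a log-scale test was used because the values are CPM. Depth was read from the step of 1 read in low values. The fit was tested on simulated data, where genes below 5 CPM gave more false calls than the threshold allows in the shallow E10.5 limb buds, so that weights from depth were added as an alternative after the data were seen.

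The members, gene lists and tests were chosen with earlier results of these data known. All 10 members are named in every comparison. Of the 12 other family genes and the 25 signalling partners, named genes are up to 2 called genes with the largest change in each direction whose higher group averages at least 5 CPM, and Epha6 was named after its values were seen. Genes alike in pattern are the 3 with the highest r. Gene positions are from RefSeq, and strands and transcript lengths from GENCODE, on GRCm38. Promoters are from RefSeq on GRCm38.p6. Python 3.11.15, numpy 2.4.6, pandas 2.3.3 and matplotlib 3.10.9 were used.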

Additional observations from a re-analysis of the deposited data

Results flagged for a closer look

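The limb-type difference (hindlimb minus forelimb, log2) differed between ES-derived cells and early buds by the interaction test for 6 genes, with values of -1.62 for Epha4, 1.46 for Ephb1, 0.64 for Efnb2, -0.52 for Efnb1, -0.42 for Efna2 and 0.39 for Epha7. The stage difference (E10.5 minus early, log2) differed between HLBs and FLBs for 4 genes, with values of -1.30 for Epha4, -0.70 for Efnb1, -0.52 for Ephb3 and 0.31 for Efnb2. The value of Efnb2 passed in 6 of the 22 fits made of it and was 0.17 without replicate 2 of the early HLBs.

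Replicate 2 of the E10.5 HLBs entered no comparison, and 7 of the 10 genes had a signal there above its floor of 0.819 CPM. Scaled with genes outside the lost region, it gave 9.93 CPM for Epha3, 131 CPM for Epha4, 38.8 CPM for Epha7, 65.9 CPM for Ephb2, 87.2 CPM for Ephb3, 88.8 CPM for Efna2 and 33.8 CPM for Efna5. Ephb1, Efnb1 and Efnb2 lie in the region listed at 0, which covers chromosomes 5, 6, 7, 8, 9 and X and chromosome 4 from position 138304738 onward (GRCm38). Of the 7 values, those of Epha4 and Ephb3 were above both other replicates on the same scale (118 to 127 CPM and 77.6 to 86.1 CPM), and the other 5 lay between them.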

How the results depend on the processing

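No alternative turned the direction of a called difference among the 10 genes. The number of members called moved by over 1.5 times in 2 cases. Between E10.5 HLBs and FLBs it was 6, and 3 without replicate 1 of the HLBs (range 3 to 6 when 1 library was left out), and between ES–HLBs and ES–FLBs it was 2, and 4 in a fit of these groups alone. With 1 library left out, the numbers ranged from 5 to 8 for early HLBs against FLBs, 6 to 7 and 5 to 8 for stage in FLBs and HLBs, 7 to 8 for ES–HLBs against E10.5 HLBs, 4 to 6 for the interaction between limb type and culture and 3 to 4 for that between limb type and stage, and the other 7 comparisons kept their number. Of 140 differences (10 genes in 14 comparisons), 139 kept their call with scaling by median of ratios, 133 with CPM as deposited, 139 with a pseudocount of 0.1, 140 with a pseudocount of 2, 137 without the filter, 136 without trend and robust, 127 in fits of the groups compared and 138 with weights from depth, which were added after the data were seen. With replicate 2 of the E10.5 HLBs kept and its lost region missing, 70 of 70 kept it.

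Replicate numbers are shared between groups in the labels. Deviations of libraries with the same number correlated at between -0.0888 and 0.126 (100 pairs, median 0.0165, 3 over 0.1). Those with other numbers correlated at between -0.165 and 0.155 (200 pairs, median -0.00985, 2 over 0.1). No clear pairing by number was seen, and with so few libraries per group these values cannot show that there was none. The replicate block changed 3 calls. It added Efnb1 in early HLBs against FLBs (0.27, adjusted p = 0.0263) and in ES–HLBs against ES–FLBs (-0.25, adjusted p = 0.0425), and it ended that of Efnb2 for the interaction of stage and limb type (0.30, adjusted p = 0.0686). A count test on recovered reads was not run, because values were not whole reads throughout. Depth limits Ephb1 most, which reaches at most 7.55 CPM in any library.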
